A study of Homo sapiens and Mus musculus with 15 samples.

Results

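The 8 genes described here are the core of the cellular oxygen-sensing pathway: the prolyl hydroxylases EGLN1, EGLN2 and EGLN3, the asparaginyl hydroxylase HIF1AN, the ubiquitin ligase subunit VHL, and the hypoxia-inducible factor (HIF) subunits HIF1A, EPAS1 and ARNT. They were picked by name, 8 of 23329 genes in the mouse count tables and 8 of 23346 genes in the human ones, and all 8 were listed in both. The set is wider than HIF factors and hydroxylases alone, since VHL is neither. EGLN3 was included because its reads rose in bortezomib-resistant mouse cells and in carfilzomib-resistant human cells, so its values are given as a description with no test. RNA was sequenced from 15 libraries in 5 groups of 3. The mouse line 5TGM1, a myeloma line grown out of a plasma cell tumour of C57Bl/KaLwRij mice, was studied as bortezomib-resistant cells (BR), kept in 20 nM bortezomib, and as drug-naive cells. The human myeloma line RPMI-8226, called 8226 here, was studied as bortezomib-resistant cells (BR, 10 nM bortezomib), carfilzomib-resistant cells (CR, 10 nM carfilzomib) and drug-naive cells. Bortezomib and carfilzomib inhibit the proteasome, and all resistant cells were off the drug for 5 days when RNA was taken. All 5 groups were grown in the same serum-containing medium, and no label describes low oxygen. Each resistant group is a single derived line, so the drug, resistance and the history of that derivation cannot be told apart.

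HIF is a pair of proteins, an alpha subunit (HIF1A or EPAS1, also called HIF-2 alpha) and the shared beta subunit ARNT, that binds DNA and switches on genes of glycolysis, blood vessel growth and adaptation to low oxygen. In the presence of oxygen the EGLN enzymes hydroxylate prolines of the alpha subunit, VHL binds the hydroxylated protein, and its ubiquitin ligase marks it for destruction by the proteasome. HIF1AN hydroxylates an asparagine that blocks recruitment of the coactivators EP300 and CREBBP. EGLN1 and EGLN3 are themselves HIF target genes. Because control of the alpha subunits acts mostly on protein, RNA levels do not give HIF activity.

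Levels are given as CPM, a gene's counts scaled to a common total of reads on genes, with library sizes adjusted by TMM, and as mean ± SD over 3 libraries. The 6 mouse libraries had 49097494 to 72288680 such reads, and the 9 human libraries 31709636 to 58419576. A count of 0 allows up to 3 counts at 95% confidence, or 0.0415 to 0.0611 CPM in the mouse and 0.0514 to 0.0946 CPM in the human libraries. The labels leave unsaid whether the replicates of a group came from different cultures, so each p-value speaks of the scatter among these libraries alone, and that scatter may be purely technical. Plasma cell markers were present: 7 of 8 listed markers exceeded 1 CPM in both mouse groups, and 8 of 9 in BR, 9 of 9 in CR and 9 of 9 in naive 8226. Their summed level was 5059 to 5149 CPM in BR and 4053 to 4257 CPM in naive 5TGM1, and 1711 to 1748 CPM in BR, 1535 to 1595 CPM in CR and 2355 to 2547 CPM in naive 8226. Of 7 macrophage markers, 1 exceeded 1 CPM in every group. Their sum was 25.2 to 26.2 CPM in BR and 19.3 to 20.3 CPM in naive 5TGM1 (Mrc1), and 16.8 to 18.1 CPM in BR (EMR1), 6.41 to 6.84 CPM in CR (EMR1) and 3.04 to 3.43 CPM in naive 8226 (MRC1). Fibroblast, endothelial, T cell and erythroid markers summed to at most 10.1 CPM in any library, and HBB was at 0 in all 9 human libraries. The part of these marker shifts in the results was not tested. In bulk RNA, fewer cells of a type and less RNA per cell cannot be told apart.

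The promoter windows of 3 members are shown: EGLN3 and EPAS1, whose RNA was close to absent in BR 8226, and EGLN1, the paralog of EGLN3 that was higher there. Each window runs from 250 bases before to 50 bases after the RefSeq start on GRCh38.p14, 5′ to 3′ on the gene's strand. Capitals mark the HIF core motifs ACGTG and GCGTG, searched on both strands.
EGLN3, chr14:33951025-33951324, minus strand: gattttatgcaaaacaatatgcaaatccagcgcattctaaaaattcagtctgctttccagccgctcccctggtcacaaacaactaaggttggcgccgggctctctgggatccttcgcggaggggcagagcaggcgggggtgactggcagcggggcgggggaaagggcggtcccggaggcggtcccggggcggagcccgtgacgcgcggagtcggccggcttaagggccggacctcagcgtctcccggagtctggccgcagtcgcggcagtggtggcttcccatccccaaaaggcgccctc
EGLN1, chr1:231422238-231422537, minus strand: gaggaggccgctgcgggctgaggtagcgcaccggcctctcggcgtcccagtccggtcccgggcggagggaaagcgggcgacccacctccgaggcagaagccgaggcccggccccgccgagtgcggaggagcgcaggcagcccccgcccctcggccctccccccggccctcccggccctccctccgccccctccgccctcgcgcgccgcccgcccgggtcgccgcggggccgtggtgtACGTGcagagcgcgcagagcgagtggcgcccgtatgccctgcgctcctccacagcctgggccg
EPAS1, chr2:46297157-46297456, plus strand: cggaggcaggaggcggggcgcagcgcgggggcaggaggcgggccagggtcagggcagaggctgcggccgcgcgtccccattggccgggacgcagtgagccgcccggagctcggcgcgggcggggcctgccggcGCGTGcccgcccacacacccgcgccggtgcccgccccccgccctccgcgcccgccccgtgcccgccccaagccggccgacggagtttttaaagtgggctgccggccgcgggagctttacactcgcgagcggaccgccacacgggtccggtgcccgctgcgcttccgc
The EGLN3 window held neither motif. The EGLN1 window held 1 ACGTG at base -13 from the start, and the EPAS1 window 1 GCGTG at base -117. Such matches are common: 48.4% of 35116 promoters of the same length held at least 1 of the motifs, 21.4% ACGTG and 36.5% GCGTG. CpG dinucleotides numbered 27 in the EGLN3 window, 42 in the EGLN1 window and 47 in the EPAS1 window, against a median of 14 per promoter. RefSeq windows were found for 7 of the 8 genes. No binding or methylation was measured in these cells, so the windows are shown as sequence context only.

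EGLN3, a prolyl hydroxylase that is strongly induced by hypoxia in many cells, had the widest range of the 8 genes and went opposite ways in BR cells of the 2 lines. In BR 5TGM1 the libraries held 14.6, 15.0 and 14.5 CPM of Egln3, against 0.813, 0.677 and 0.796 CPM in naive 5TGM1. The groups were far apart, with counts of 715 to 862 per BR library and 39 to 49 per naive library. The ratio was 19.3-fold (log2 4.28), rank 19 among the rises of 11974 tested mouse genes, of which 3.67% were called at least 2-fold higher. In 8226, EGLN3 stood at 0.0545, 0.0292 and 0.0274 CPM in BR cells, at 202, 216 and 215 CPM in CR cells, and at 49.0, 49.0 and 51.0 CPM in naive cells. The CR libraries were all the highest and the BR libraries close to empty, with 4 counts over the 3 BR libraries, 31998 over the CR libraries and 6005 over the naive ones. The CR level was 4.26-fold that of naive cells (log2 2.09), rank 735 among the rises of 13910 human genes, of which 10.9% were called at least 2-fold higher. These rises in BR 5TGM1 and CR 8226 are the ones that chose EGLN3.

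In BR 8226, EGLN3 was far below naive cells, and this too is given with no test, since its naive libraries also entered the CR comparison that chose the gene. The fitted log2 value was -10.27. Taken from the summed counts, naive cells held 1333 times the BR level, with a 95% interval of 520.2 to 4893 that covers counting error only. CR cells held 5673 times the BR level. With 4 counts in the BR libraries, the size of either ratio is loosely set. Falls of at least 2-fold were called for 19.4% of tested genes in BR 8226, and EGLN3 ranked 205 among all falls. The plot of 8226 levels by library shows how far EGLN3 and EPAS1 stand from the other members in BR cells.

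**Figure D1:**
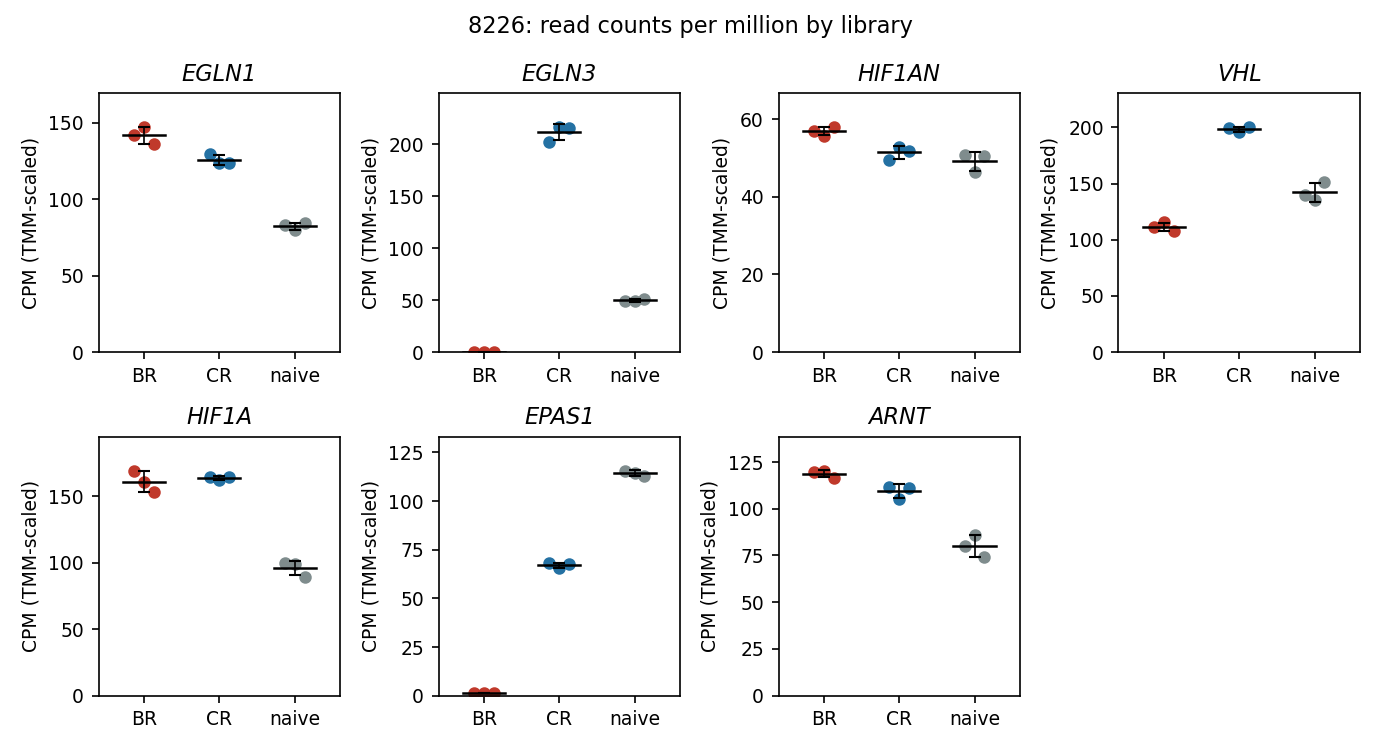
Levels of 7 members in 8226, in CPM on TMM-scaled library sizes (vertical axis from 0), for BR, CR and naive cells. Each point is a library, the horizontal line is the mean and the bar the SD (n = 3). EGLN3 and EPAS1 are near 0 in BR cells, and HIF1A and ARNT are higher in both resistant groups than in naive cells. EGLN2, with 1 count in each group, is not drawn.

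EGLN1, the main prolyl hydroxylase of most cells, was higher in every resistant group than in its naive line. BR 5TGM1 libraries held 138, 144 and 138 CPM, against 87.4, 92.9 and 96.2 CPM in naive 5TGM1, with no overlap. The rise was 1.52-fold (log2 0.61 ± 0.0443, SE, n = 3 each, adjusted p = 3.89e-09). This and every adjusted p given here came from the quasi-likelihood test of edgeR, adjusted over all tested genes by Benjamini-Hochberg. In 8226, EGLN1 stood at 142, 147 and 136 CPM in BR cells, 129.6, 124 and 124 CPM in CR cells, and 82.8, 79.9 and 84.4 CPM in naive cells. Both resistant groups lay wholly above naive cells. The rise was 1.72-fold in BR cells (log2 0.78 ± 0.0507, adjusted p = 1.03e-09) and 1.53-fold in CR cells (log2 0.61 ± 0.0505, adjusted p = 3.00e-08). Both comparisons share the naive libraries. CR cells were lower than BR cells by a small margin (log2 -0.17 ± 0.04998, adjusted p = 0.00566), so the order was BR, CR, naive with every step past the test.

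EGLN2, an estrogen-induced paralog, could be read only in the mouse. BR 5TGM1 libraries held 94.9, 97.7 and 88.5 CPM, against 86.9, 85.1 and 87.2 CPM in naive 5TGM1. The groups did not overlap, but their gap was narrow (log2 0.12 ± 0.0441, adjusted p = 0.0266). The call was lost when naive library 2 (adjusted p = 0.0797), BR library 1 (0.0715) or BR library 2 (0.149) was left out. Human EGLN2 had 1 count in each group of 3 libraries and was not tested. In the GENCODE v29 annotation 90.4% of its 2226 exonic bases lie in the read-through gene RAB4B-EGLN2 on the same strand, and RAB4B and RAB4B-EGLN2 also had 0 counts in all 9 human libraries. Reads shared by several genes were not counted, so the human level of EGLN2 cannot be read from these counts.

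HIF1AN, the asparaginyl hydroxylase that limits HIF transactivation, moved little and in different directions. BR 5TGM1 libraries held 87.8, 82.7 and 83.4 CPM, against 89.3, 102 and 93.9 CPM in naive 5TGM1. All BR libraries lay below the naive ones, and Hif1an was 1.12-fold lower (log2 -0.17 ± 0.0490, adjusted p = 0.00659). In 8226, HIF1AN stood at 57.0, 55.8 and 57.9 CPM in BR cells, 49.6, 52.9 and 51.9 CPM in CR cells, and 50.7, 46.3 and 50.4 CPM in naive cells. BR cells were above the other 2 groups, whose ranges overlapped. The rise in BR cells was 1.16-fold (log2 0.21 ± 0.0559, adjusted p = 0.00290), while CR and naive cells differed by 0.06 ± 0.0555 on the log2 scale (adjusted p = 0.308). The gap of CR from BR cells (log2 -0.15 ± 0.0555, adjusted p = 0.0265) lost its call without BR library 1 (adjusted p = 0.0651) or 3 (0.0700), or CR library 1 (0.160) or 3 (0.0569).

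VHL, which recognizes hydroxylated HIF alpha for ubiquitination, separated the human groups. It stood at 111, 115 and 108 CPM in BR 8226, 199, 196 and 200.2 CPM in CR 8226, and 139.6, 136 and 151 CPM in naive 8226. The groups did not overlap, in the order CR, naive, BR. VHL was 1.27-fold lower in BR cells than in naive cells (log2 -0.35 ± 0.0529, adjusted p = 1.89e-05) and 1.40-fold higher in CR cells (log2 0.48 ± 0.0524, adjusted p = 7.17e-07). CR cells were 1.78-fold above BR cells (log2 0.83 ± 0.0528, adjusted p = 9.46e-10). In the mouse, Vhl stood at 18.8, 19.7 and 20.3 CPM in BR cells, against 17.6, 18.4 and 19.2 CPM in naive cells. Those ranges overlapped, and the difference of 0.09 ± 0.0540 on the log2 scale missed the threshold (adjusted p = 0.145).

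HIF1A, the alpha subunit found in most cell types, was higher in both resistant 8226 groups and close to level in 5TGM1. It stood at 169.02, 160.5 and 153 CPM in BR 8226, 164, 162 and 165 CPM in CR 8226, and 99.5, 98.7 and 89.5 CPM in naive 8226. Both resistant groups lay above naive cells and overlapped each other. The rise was 1.68-fold in BR cells (log2 0.75 ± 0.0556, adjusted p = 5.56e-09) and 1.71-fold in CR cells (log2 0.77 ± 0.0554, adjusted p = 5.70e-09). CR and BR cells differed by 0.02 ± 0.0548 on the log2 scale (adjusted p = 0.716), a value whose sign turned to -0.10 when libraries were scaled by size alone and to -0.01 without BR library 3. BR 5TGM1 libraries held 118, 119.8 and 119.7 CPM of Hif1a, against 116, 125 and 121 CPM in naive 5TGM1. The BR values lay inside the naive range (log2 -0.02 ± 0.0408, adjusted p = 0.720), and the sign turned without naive library 2 (log2 0.0040). Counts that ignore strand held 28.4% to 40.2% fewer HIF1A reads per human library, and the cause was not tested. The antisense gene HIF1A-AS2 had 1 to 23 stranded counts per library. The stranded counts were used.

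EPAS1, the alpha subunit best known from endothelial cells and from kidney cancer lacking VHL, was lost almost wholly from BR 8226. It stood at 1.36, 1.43 and 1.34 CPM in BR cells, 68.1, 65.6 and 67.5 CPM in CR cells, and 116, 115 and 113 CPM in naive cells. The 3 groups did not overlap, and the BR libraries held 148 counts in all. EPAS1 was 82.9-fold lower in BR cells than in naive cells (log2 -6.37 ± 0.0739, adjusted p = 6.28e-18), rank 917 among the falls of 13910 genes, with a counting interval of 70.7 to 98.4 around a ratio of 83.1 from summed counts. It was 1.70-fold lower in CR cells than in naive cells (log2 -0.77 ± 0.0480, adjusted p = 1.02e-09). CR cells were 48.6-fold above BR cells (log2 5.60 ± 0.0743, adjusted p = 1.80e-17). Epas1 had 1 count over the 3 BR libraries and 1 over the 3 naive libraries of 5TGM1, at the floor in both, and was not tested there. Endothelial markers, of which CDH5 was at 0 in all 3 human groups, summed to 0.354 to 0.613 CPM in BR, 0.171 to 0.266 CPM in CR and 0.530 to 0.606 CPM in naive 8226.

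ARNT, the beta subunit that pairs with both alpha subunits, was higher in every resistant group than in its naive line. BR 5TGM1 libraries held 95.8, 90.5 and 93.9 CPM, against 70.3, 78.6 and 77.5 CPM in naive 5TGM1. The groups were apart, with a 1.24-fold rise (log2 0.31 ± 0.0474, adjusted p = 2.67e-05). In 8226, ARNT stood at 119, 120.4 and 117 CPM in BR cells, 112, 105 and 111 CPM in CR cells, and 79.9, 86.1 and 74.2 CPM in naive cells. Both resistant groups lay above naive cells, by 1.48-fold in BR cells (log2 0.57 ± 0.0580, adjusted p = 2.37e-07) and 1.37-fold in CR cells (log2 0.45 ± 0.0577, adjusted p = 4.41e-06). The gap of CR from BR cells, -0.12 ± 0.0573 on the log2 scale, missed the threshold (adjusted p = 0.0709), though their libraries did not overlap. It passed when naive library 2 (adjusted p = 0.0361) or 3 (0.0463), which share the fit, was left out.

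**Figure D2:**
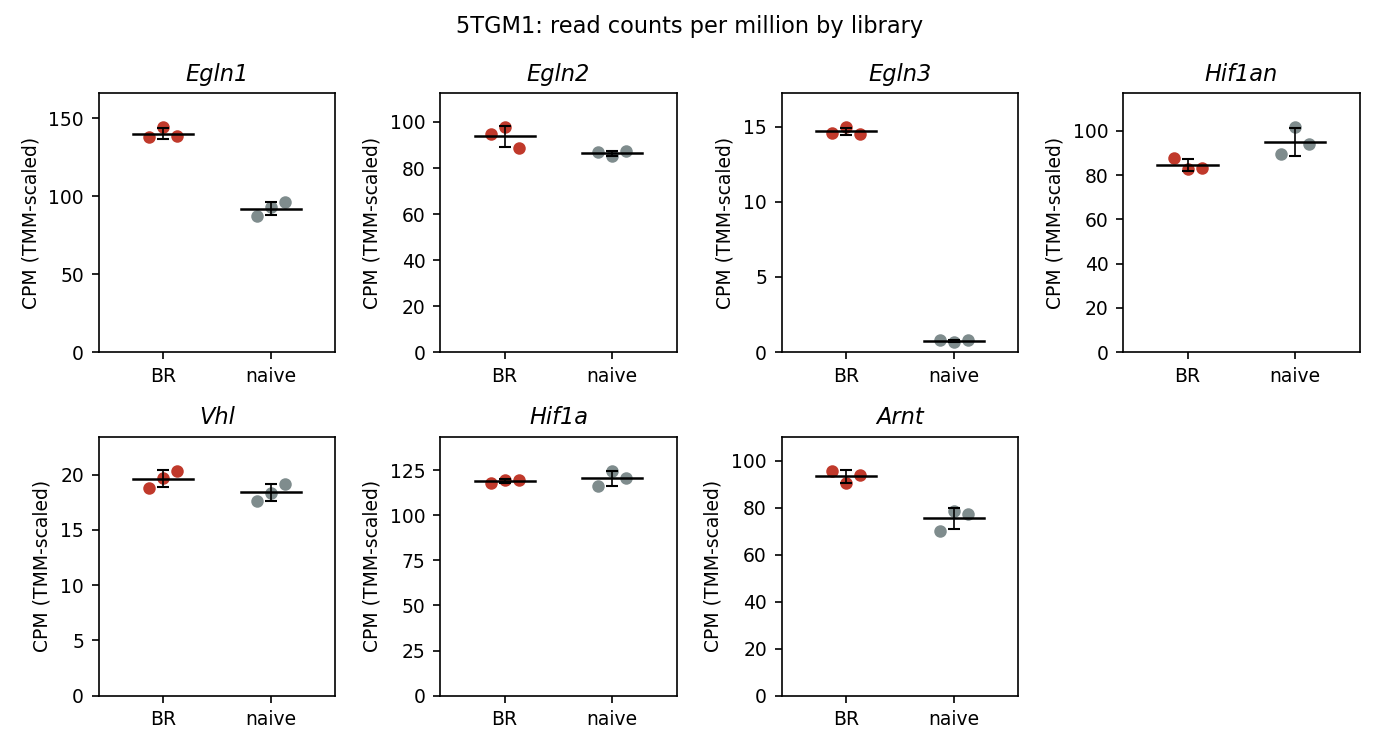
Levels of 7 members in 5TGM1, in CPM on TMM-scaled library sizes (vertical axis from 0), for BR and naive cells. Each point is a library, the horizontal line is the mean and the bar the SD (n = 3). Egln3, at 14.7 CPM in BR cells and 0.762 CPM in naive cells, has the widest gap, and Hif1a and Vhl overlap. Epas1, with 1 count in each group, is not drawn.

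Among the members other than EGLN3, 6 could be tested in each comparison. In BR 5TGM1, 3 were higher (Egln1, Egln2, Arnt) and 1 lower (Hif1an), while 34.0% of all tested mouse genes were called higher and 33.2% lower at an adjusted p below 0.05. In BR 8226, 4 were higher (EGLN1, HIF1AN, HIF1A, ARNT) and 2 lower (VHL, EPAS1), against 38.2% and 41.6% of all tested genes. In CR 8226, 4 were higher (EGLN1, VHL, HIF1A, ARNT) and 1 lower (EPAS1), against 35.0% and 36.7%. Between CR and BR 8226, 2 were higher in CR cells (VHL, EPAS1) and 2 lower (EGLN1, HIF1AN), against 39.9% and 37.0%. The lower ones numbered 1 without BR library 1 or 3 or CR library 1 or 3, and 3 without naive library 2 or 3. Calls in either direction covered 67.2% of all tested genes in BR 5TGM1, 79.8% in BR 8226, 71.7% in CR 8226 and 76.9% between CR and BR 8226, so a call alone sets no member apart. Libraries of the 2 groups compared did not overlap for 4 of the 6 members in BR 5TGM1, 6 in BR 8226, 5 in CR 8226 and 5 between CR and BR 8226. Over all tested genes, the groups lay apart with higher values in 35.5% and lower values in 34.2% in BR 5TGM1, in 38.5% and 41.2% in BR 8226, in 36.3% and 36.8% in CR 8226, and in 41.5% and 38.3% between CR and BR 8226. The median log2 change of these members was 0.10 in BR 5TGM1, 0.39 in BR 8226 and 0.47 in CR 8226, beside medians over all tested genes of 0.0045, -0.03 and -0.0036.

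**Figure D3:**
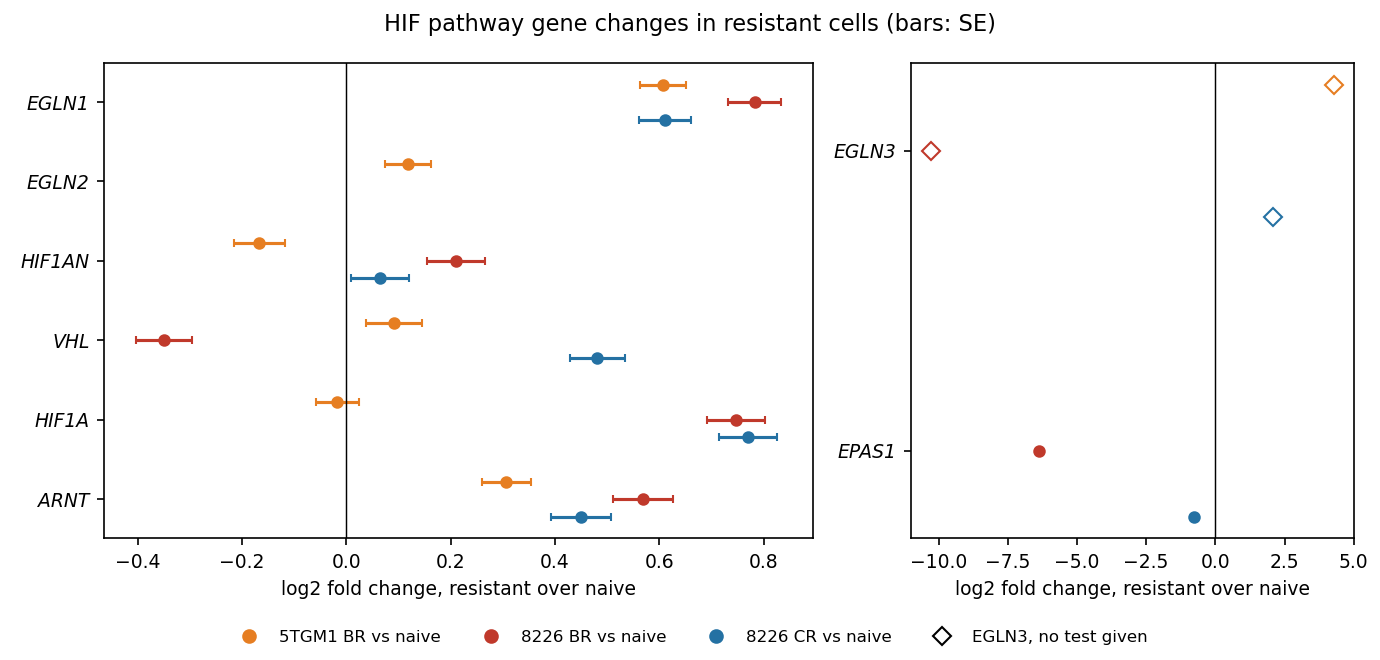
Log2 fold change of each member, resistant over naive (horizontal axis), in BR 5TGM1, BR 8226 and CR 8226. Filled circles with bars are edgeR estimates with SE, and open diamonds are EGLN3 changes, given without a test or error. EGLN3 and EPAS1 have an axis of their own, reaching -10.27 for EGLN3 in BR 8226. EGLN1 and ARNT lie right of 0 in all 3 comparisons, of which BR and CR 8226 share their naive libraries.

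The bortezomib-resistance changes of the 2 lines were set against each other in a single fit over 11847 genes whose symbol matched across species. The change in 8226 exceeded that in 5TGM1 for HIF1A by 0.78 ± 0.0754 (adjusted p = 1.77e-08), for HIF1AN by 0.40 ± 0.0793 (adjusted p = 0.000196), for ARNT by 0.28 ± 0.0810 (adjusted p = 0.00472) and for EGLN1 by 0.20 ± 0.0708 (adjusted p = 0.0202), all on the log2 scale. For VHL it was lower by 0.42 ± 0.0802 (log2 -0.42, adjusted p = 0.000120). The call for EGLN1 was lost without naive 5TGM1 library 3 (adjusted p = 0.0602) or BR 8226 library 2 (0.0555). Such differences were common: 64.9% of the genes were called, 31.4% higher and 33.5% lower. With libraries scaled by size alone 58.9% of all calls in this fit were higher, against 48.3% with TMM. A member needed more than 3 counts in each group of both lines for its difference to be given. EGLN2 in 8226 and Epas1 in 5TGM1 had 1 count per group and were set aside. EGLN3 was left untested because its mouse change chose it.

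Per length of transcript, the make-up of the EGLN and alpha subunit pools differed among the 8226 groups. Lengths were those of GENCODE v29 transcripts matched to RefSeq, 2709 bases for EGLN3, 7097 for EGLN1, 5166 for EPAS1 and 3956 for HIF1A, and may differ from the annotation behind the counts. EGLN3 stood at 0.0137 ± 0.00558 CPM per kb in BR cells, 78.0 ± 2.85 in CR cells and 18.3 ± 0.424 in naive cells. EGLN1 stood at 20.0 ± 0.773 CPM per kb in BR cells, 17.7 ± 0.473 in CR cells and 11.6 ± 0.321 in naive cells. EGLN3 thus made up 0.0520% to 0.100% of the sum of both in BR libraries, 80.4% to 82.1% in CR libraries and 60.8% to 61.6% in naive libraries. The leading prolyl hydroxylase RNA of the pair was EGLN1 in BR cells and EGLN3 in CR and naive cells. EPAS1 stood at 0.267 ± 0.00889 CPM per kb in BR cells, 12.98 ± 0.248 in CR cells and 22.1 ± 0.283 in naive cells. HIF1A stood at 40.7 ± 1.996 CPM per kb in BR cells, 41.3 ± 0.386 in CR cells and 24.2 ± 1.40 in naive cells. EPAS1 made up 0.613% to 0.678% of the pair in BR libraries, 23.7% to 24.1% in CR libraries and 47.1% to 49.1% in naive libraries. Naive cells thus held the alpha subunits at nearly even levels per length, and both resistant groups were weighted to HIF1A.

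**Figure D4:**
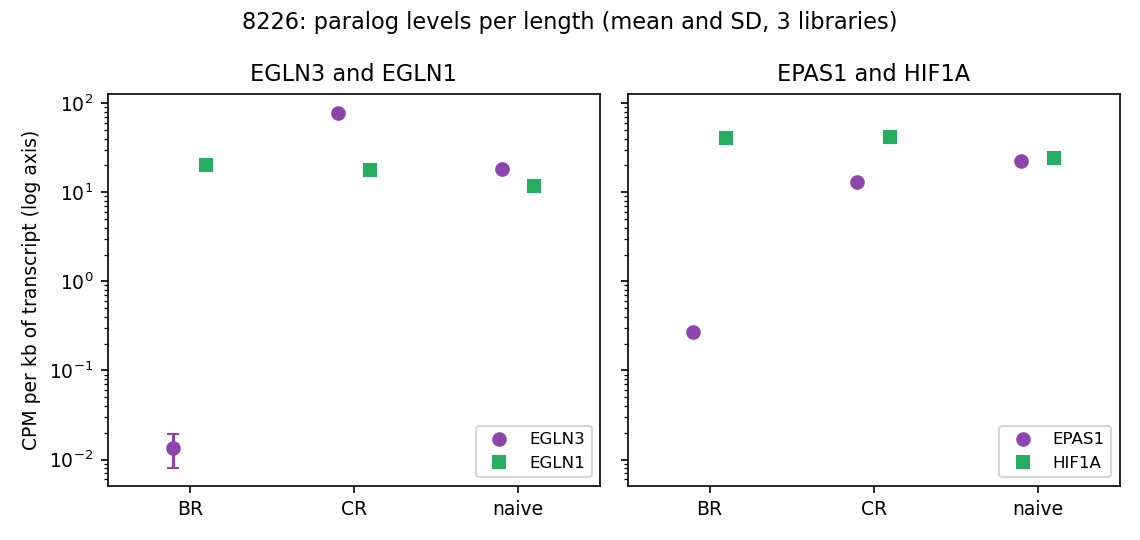
Levels per kb of transcript in 8226 (CPM per kb, log axis) of EGLN3 with EGLN1 (left) and EPAS1 with HIF1A (right), in BR, CR and naive cells. Points are means and bars SD over 3 libraries, mostly smaller than the points. EGLN3 lies far below EGLN1 in BR cells and above it in CR and naive cells, and EPAS1 lies far below HIF1A in BR cells only.

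The tested genes nearest to EGLN3 and EPAS1 in RefSeq gene order did not share one direction in BR 8226. Only protein-coding genes that passed the filter on low counts were taken, so untested genes may lie between. Calls covered 79.8% of all tested genes in BR 8226 and 71.7% in CR 8226, so a call alone sets none of these genes apart. Of the 3 nearest such genes on each side of EGLN3 on chromosome 14, ARHGAP5 and AKAP6 were higher in BR than in naive cells (log2 1.85, adjusted p = 2.71e-13, and log2 2.94, adjusted p = 1.92e-12). SPTSSA and SNX6 were lower (log2 -0.39, adjusted p = 0.000216, and log2 -0.32, adjusted p = 2.78e-05), and EAPP missed the threshold (log2 -0.07, adjusted p = 0.441). In CR cells, where EGLN3 was higher than in naive cells, ARHGAP5 and AKAP6 were higher too (log2 1.67, adjusted p = 1.34e-12, and log2 1.28, adjusted p = 2.64e-07). SNX6 was higher there (log2 0.12, adjusted p = 0.0385), EAPP lower (log2 -0.28, adjusted p = 0.00714), and SPTSSA missed the threshold (adjusted p = 0.530). The nearest tested gene on one side, NPAS3, stood at 0.605 CPM in BR cells, 0.00805 CPM in CR cells and 0 CPM in naive cells. Beside EPAS1 on chromosome 2, PRKCE and RHOQ were lower in BR than in naive cells. PRKCE, a protein kinase C, stood at 3.86 CPM in BR cells and 13.4 CPM in naive cells (log2 -1.79, adjusted p = 3.17e-11). RHOQ stood at 10.5 CPM in BR cells and 43.3 CPM in naive cells (log2 -2.04, adjusted p = 2.29e-13). CAMKMT was higher (log2 0.82, adjusted p = 1.36e-08), and SRBD1, ATP6V1E2 and PIGF missed the threshold.

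Over the 9 human libraries, the gene whose log2 level ran closest to EGLN3 was C6orf115, among 1112 genes with at least 10 CPM in their highest group and a range of group means of at least 4-fold on CPM + 0.5. Its Pearson correlation was 0.9995, on log2(CPM + 0.5), and the 9 points fall into 3 groups, so the value mostly restates the order CR, naive, BR. C6orf115 stood at 0 CPM in BR cells, 80.7 ± 4.65 CPM in CR cells and 23.4 ± 2.94 CPM in naive cells. The next were the flippase gene ATP10D (0.9995), the folate enzyme gene ALDH1L1 (0.999), the TGF-beta receptor gene TGFBR2 (0.999) and RCSD1 (0.999). TGFBR2, for example, stood at 0.0370 ± 0.0414 CPM in BR cells, 45.2 ± 1.26 CPM in CR cells and 13.1 ± 0.603 CPM in naive cells. The 4 with a mouse gene of the same symbol, ATP10D to RCSD1, were at 0.154 CPM or less in both mouse groups, while Egln3 stood at 14.7 CPM in BR 5TGM1. EPAS1 followed EGLN3 less closely (r = 0.94, order 230) and was lower in CR than in naive cells.

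HIF target genes outside glycolysis were counted from a list of 30. Of 20 tested in 5TGM1, 14 (70.0%) were higher and 3 lower in BR cells, where 34.0% and 33.2% of all tested genes were. Their median was 0.62 on the log2 scale, beside 0.0045 over all genes. Bnip3, a mitophagy receptor, stood at 249 ± 7.16 CPM in BR cells and 89.7 ± 1.29 CPM in naive cells (log2 1.48, adjusted p = 1.53e-14). Ddit4, an inhibitor of mTORC1, stood at 189 ± 2.49 CPM in BR cells and 68.3 ± 3.27 CPM in naive cells (log2 1.47, adjusted p = 4.16e-14). P4ha2, a collagen prolyl hydroxylase subunit (log2 1.24), and Fam162a (log2 1.10) were also higher. In BR 8226 the list leaned the other way, with 9 of 28 higher and 18 (64.3%) lower, where 38.2% and 41.6% of all genes were. The median was -0.40, beside -0.03 over all genes. NDRG1, a stress-induced gene, stood at 13.1 ± 1.16 CPM in BR cells and 144 ± 5.46 CPM in naive cells (log2 -3.46, adjusted p = 9.56e-16). The secreted hormone gene STC2 (log2 -3.04) and DDIT4 (log2 -1.84) were lower too, while ANKRD37 was higher at 26.2 ± 1.14 CPM in BR cells and 3.86 ± 0.614 CPM in naive cells (log2 2.77, adjusted p = 1.87e-12).

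Scaling by library size alone put the median over all genes in BR 8226 at 0.16, against -0.03 with TMM, and the list at 9 higher and 14 lower with a median of -0.22. It also put 58.7% of all calls in BR 8226 on the higher side, against 47.9% with TMM. In CR 8226, 6 of 28 non-glycolytic targets were higher and 17 (60.7%) lower, against 35.0% and 36.7% of all genes, with a median of -0.35 beside -0.0036. RORA, a nuclear receptor, stood at 2.10 ± 0.102 CPM in CR cells and 23.3 ± 1.28 CPM in naive cells (log2 -3.47, adjusted p = 5.36e-14). NDRG1 (log2 -1.90) and P4HA2 (log2 -0.71) were also lower, and RBPJ, the DNA-binding partner of Notch, was higher (log2 0.84). With TMM, most of these non-glycolytic targets were lower than in naive cells both in CR cells, which held the most EGLN3, and in BR cells, which held almost none. Any link between EGLN3 and these targets was not tested. Between CR and BR cells, 11 were higher and 10 lower, near the 39.9% and 37.0% of all genes, with ANKRD37 (log2 -3.06) lower and STC2 (log2 2.52) higher in CR cells. Of the 28, 3 had no counts in BR cells and 1 had none in CR cells, and setting those at the floor left the medians against naive cells as given.

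Glycolytic HIF targets were counted from a list of 21. Of 17 tested in 5TGM1, 10 were higher and 6 lower in BR cells, against 34.0% and 33.2% of all tested genes, with a median of 0.29. Pfkp, a phosphofructokinase (log2 0.93, adjusted p = 3.81e-12), and the hexokinase Hk1 (log2 0.62, adjusted p = 6.81e-09) rose. Aldoc, a brain-type aldolase, stood at 0.573 ± 0.0203 CPM in BR cells and 15.4 ± 0.390 CPM in naive cells (log2 -4.74, adjusted p = 2.79e-16). In BR 8226, 2 of 20 were higher and 10 lower, against 38.2% and 41.6% of all genes, with a median of -0.18. Library size alone gave 6 higher and 8 lower with a median of 0.0090, so the sign of that median rests on the scaling. SLC2A3, a glucose transporter, stood at 1.43 ± 0.299 CPM in BR cells and 25.6 ± 1.46 CPM in naive cells (log2 -4.16, adjusted p = 2.42e-14). ENO2, an enolase (log2 -4.04), SLC16A3, a lactate exporter (log2 -2.33), and PDK1, which restrains pyruvate dehydrogenase (log2 -1.48), were lower as well. In CR 8226, 8 were higher and 9 lower, near the 35.0% and 36.7% of all genes, with a median of -0.04 that turned to 0.02 with library size alone. SLC2A3 (log2 -4.41), ENO2 (log2 -4.00) and ALDOC (log2 -1.66) were lower and PDK3 was higher (log2 0.86). Against BR cells, CR cells had 11 of 20 higher and 5 lower (8 and 8 with library size alone), beside 39.9% and 37.0% of all genes, with a median of 0.21. Among the higher ones were SLC16A3, at 78.7 ± 4.27 CPM in CR cells and 13.9 ± 1.22 CPM in BR cells, and SLC2A1 (log2 0.83).

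**Figure D5:**
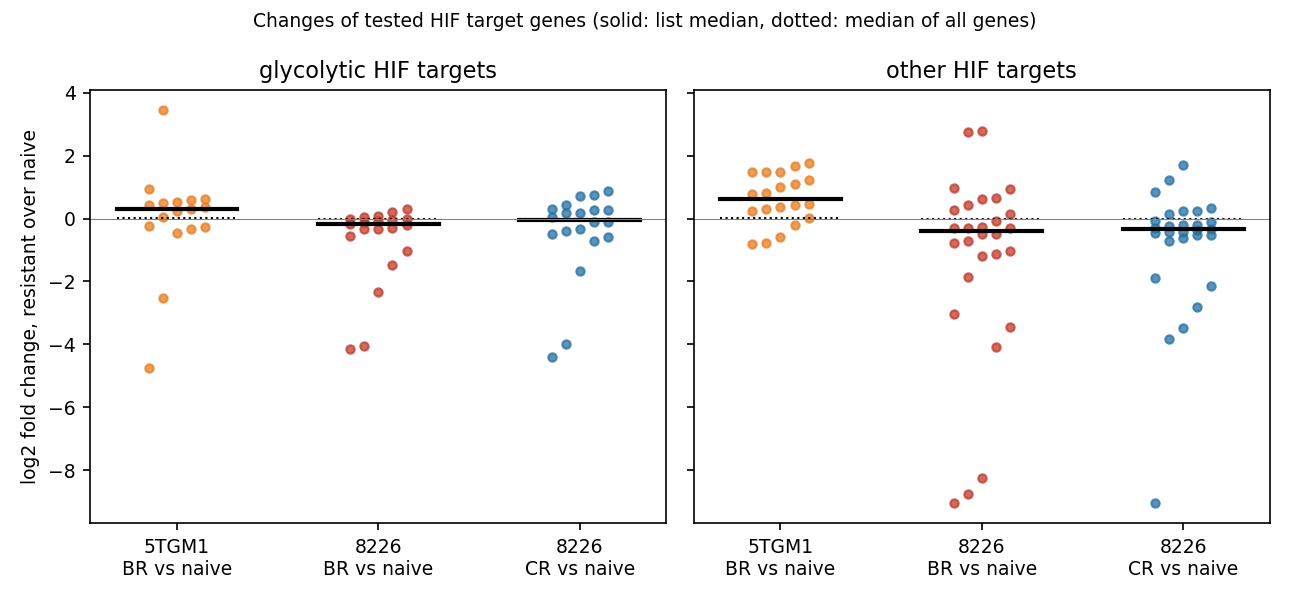
Log2 fold change, resistant over naive (vertical axis), of each tested glycolytic (left) and other (right) HIF target in BR 5TGM1, BR 8226 and CR 8226. Points are genes, solid lines the list medians and dotted lines the medians over all tested genes. Other targets have a median of 0.62 in BR 5TGM1 and of -0.40 in BR 8226. Points below -8 are genes with no counts or nearly none in the resistant cells, whose fitted value has no firm size.

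A list of 8 held the VHL ligase subunits TCEB1, TCEB2, CUL2 and RBX1, the cullin modifier NEDD8, and the VHL-binding VBP1, USP20 and USP33. Of these 8, 7 were higher and 1 lower in BR 8226, where VHL was lower, against 38.2% and 41.6% of all genes. Their median was 0.37, and 0.56 with library size alone. The deubiquitinases USP20 (log2 0.71, adjusted p = 6.65e-08) and USP33 (log2 0.66, adjusted p = 3.60e-08), which bind VHL, were higher. So was elongin C, listed as TCEB1 (log2 0.44, adjusted p = 1.92e-05), while elongin B, listed as TCEB2, was lower (log2 -0.83, adjusted p = 4.83e-06). In CR 8226, where VHL was higher, 2 of 8 were higher and 3 lower, against 35.0% and 36.7% of all genes, the lower ones being RBX1 (log2 -0.42), NEDD8 (log2 -0.40) and TCEB2 (log2 -0.72). Of the 8, 6 were lower in CR than in BR cells, where 37.0% of all genes were, among them the ring protein RBX1 (log2 -0.74), the scaffold CUL2 (log2 -0.50) and NEDD8, which is conjugated to cullins (log2 -0.68). In 5TGM1, 4 of 8 were higher and 1 lower in BR cells, against 34.0% and 33.2% of all genes, with Cul2 at 0.32 and Nedd8 at -0.95 on the log2 scale.

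A list of 9 held proteins that bind or degrade the prolyl hydroxylases, together with P4HTM, itself a prolyl hydroxylase. In BR 8226, 1 of 9 was higher and 6 were lower (1 and 5 with library size alone), against 38.2% and 41.6% of all genes. SIAH2, a ubiquitin ligase known to target EGLN3, was lower in every resistant group than in its naive line. It stood at 66.4 ± 1.90 CPM in BR 8226, 126 ± 2.89 CPM in CR 8226 and 158 ± 4.12 CPM in naive 8226 (log2 -1.25 and adjusted p = 2.42e-12 for BR, log2 -0.32 and adjusted p = 2.37e-05 for CR cells). Siah2 stood at 89.4 ± 2.60 CPM in BR and 139.5 ± 2.47 CPM in naive 5TGM1 (log2 -0.64, adjusted p = 6.83e-10). LIMD1, a scaffold of prolyl hydroxylases and VHL (log2 -0.70), and P4HTM, a membrane-bound prolyl hydroxylase (log2 -0.997), were lower in BR 8226. Of the list, 2 of 9 were higher and 4 lower in CR 8226 (35.0% and 36.7% of all genes), 6 higher and 3 lower in CR against BR cells (39.9% and 37.0%), and 2 of 7 higher and 2 lower in BR 5TGM1 (34.0% and 33.2%). Coregulators of the alpha subunits had 1 of 7 higher and 5 lower in BR 8226 (1 and 2 with library size alone), and 4 higher in CR 8226. They had 6 higher and 1 lower in CR against BR cells (3 and 1 with library size alone), and 1 of 7 higher and 3 lower in BR 5TGM1. The shares of all genes higher and lower were those just given for each comparison. CITED2, which competes with HIF for EP300 and CREBBP, stood at 49.2 ± 1.26 CPM in BR cells, 194 ± 14.7 CPM in CR cells and 150.3 ± 5.56 CPM in naive cells. The acetyltransferase gene CREBBP was lower in BR 8226 (log2 -1.02) and in BR 5TGM1 (log2 -0.63).

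Of the further subunits, ARNT2, a paralog of ARNT, was at 10.6 ± 0.801 CPM in CR 8226, against 0.00973 ± 0.0168 CPM in BR cells and 0.100 ± 0.0313 CPM in naive cells. The rise over naive cells was 6.70 ± 0.195 on the log2 scale (adjusted p = 1.02e-13). Arnt2 was at 1.10 ± 0.161 CPM in BR and 2.77 ± 0.149 CPM in naive 5TGM1 (log2 -1.34, adjusted p = 1.01e-07). Hif3a, a further alpha subunit, was at 0.869 ± 0.0216 CPM in BR and 0.793 ± 0.0698 CPM in naive 5TGM1 (adjusted p = 0.574), and HIF3A was below the filter in 8226.

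Other oxygenases that need iron and 2-oxoglutarate, as the EGLN enzymes do, had 18 of 37 higher and 7 lower in BR 5TGM1. KDM3A, P4HA1 and P4HA2 are on this list and on that of non-glycolytic HIF targets, so the counts of both lists share them. They had 19 of 43 higher and 17 lower in BR 8226 (20 and 10 with library size alone), 18 higher and 13 lower in CR 8226, and 16 higher and 12 lower in CR against BR cells. Beside these stand 34.0% and 33.2% of all genes in BR 5TGM1, 38.2% and 41.6% in BR 8226, 35.0% and 36.7% in CR 8226, and 39.9% and 37.0% in CR against BR cells. In 5TGM1 the collagen-modifying Plod1 (log2 1.35, adjusted p = 2.48e-13) and Asph, an aspartyl hydroxylase (log2 0.89, adjusted p = 5.36e-12), were higher in BR cells. In BR 8226 the DNA demethylases TET1 (log2 1.87, adjusted p = 4.19e-10) and TET2 (log2 1.42, adjusted p = 7.82e-11) were higher. PLOD2, a lysyl hydroxylase of collagen, stood at 0 CPM in BR cells, 0.0121 ± 0.0105 CPM in CR cells and 16.0 ± 0.927 CPM in naive cells. LEPREL1, a collagen prolyl hydroxylase, had the same order of groups as EGLN3, at 0.103 ± 0.0181 CPM in BR cells, 16.3 ± 0.974 CPM in CR cells and 11.6 ± 0.794 CPM in naive cells. So did ASPH, at 0.0189 ± 0.0164 CPM in BR cells, 12.3 ± 0.314 CPM in CR cells and 4.94 ± 0.529 CPM in naive cells. Like EGLN3, ASPH was thus lower in BR 8226 and higher in BR 5TGM1 than in naive cells. Enzymes that make or use 2-oxoglutarate, succinate or fumarate had 6 of 17 higher and 6 lower in BR 5TGM1, 9 of 18 higher and 5 lower in BR 8226, 7 higher and 5 lower in CR 8226 (10 and 2 with library size alone), and 7 higher and 7 lower in CR against BR cells. Beside the same shares of all genes, the counts in BR 5TGM1 and in CR against BR cells were near the background. IDH1, which makes 2-oxoglutarate from isocitrate, stood at 199 ± 5.12 CPM in BR cells, 76.7 ± 1.08 CPM in CR cells and 40.8 ± 2.62 CPM in naive cells (log2 2.29 and adjusted p = 8.07e-15 for BR, log2 0.91 and adjusted p = 7.16e-10 for CR cells). IDH3B was higher in BR 5TGM1 (log2 0.48), BR 8226 (log2 0.93) and CR 8226 (log2 0.73). Glud1, which makes 2-oxoglutarate from glutamate, was lower in BR 5TGM1 (log2 -1.09, adjusted p = 4.67e-13).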

How the data were processed

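RNA-seq gene counts were analysed for 15 libraries of 5TGM1 and RPMI-8226, grouped by their titles. The authors deposited whole-number counts per gene symbol, not normalized, in the layout that STAR writes. STAR and the builds mm10, hg19, GRCm38 and GRCh37 are named in the submitters' processing notes, while their versions and the release of the annotation are not given in the sources used here. Of its columns, the one on the genes' strand was used. The opposite one held 1.43% to 2.12% of stranded reads, though no label names a kit that marks strand. Reads on several places or several genes were not counted. Rows naming no gene stayed out of library sizes. They hold multimapping reads (8.95% to 16.3% of a library), unmapped reads (1.04% to 6.04%), reads on no gene (10.4% to 16.6%) and ambiguous reads (0.602% to 1.14%).

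From these counts, edgeR 4.0.16 (R 4.3.3, limma 3.58.1) was run with TMM (factors 0.996 to 1.00 in mouse, 0.937 to 1.08 in human), filterByExpr, and its quasi-likelihood test, adjusted by Benjamini-Hochberg over all genes and called below 0.05. The 9 human libraries entered 1 fit. Each SE was taken from the F statistic. The procedure was tested on simulated data. Alternatives were DESeq2 1.42.0, RLE or library-size scaling, no filter, counts ignoring strand, the replicate number as a block, 2 groups alone, and leaving out each library. Replicate libraries differed by more than counting noise (chi-square per degree of freedom 3.98 to 25.8). Intervals and floors cover counting error only.

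The 8 members were named in every comparison. From each list (HIF targets glycolytic and other, VHL ligase, hydroxylase adaptors, coregulators, further subunits, other oxygenases, cosubstrate enzymes, cell markers) up to 4 called genes of the largest change with at least 10 CPM could be named. Arnt2 and Hif3a in 5TGM1, and the tested genes nearest to EGLN3 and EPAS1, are given outside that limit. Members and lists were chosen with earlier results of these data known. Mouse and human genes were matched by symbol, which is not an orthology table. Promoters are RefSeq's (GRCh38.p14). Lengths and overlaps are from GENCODE v29.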

Additional observations from a re-analysis of the deposited data

Results flagged for a closer look

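The change with bortezomib resistance differed between the lines for 5 of the genes, by the test of the difference itself in edgeR (8226 minus 5TGM1, log2). In this fit 64.9% of 11847 genes were called, 31.4% higher and 33.5% lower, so a call alone sets none of the 5 apart. The difference was 0.78 for HIF1A (adjusted p = 1.77e-08), 0.40 for HIF1AN (adjusted p = 0.000196), 0.28 for ARNT (adjusted p = 0.00472), 0.20 for EGLN1 (adjusted p = 0.0202) and -0.42 for VHL (adjusted p = 0.000120). HIF1A and ARNT were higher in all 3 BR 8226 libraries than in all 3 naive ones. EGLN1 and ARNT were higher in BR than in naive cells of both lines, and the EGLN1 difference lost its call with RLE scaling. The lines differ in species, in drug dose (10 nM for 8226 and 20 nM for 5TGM1) and in derivation, which cannot be told apart.

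EGLN3 was higher in every BR 5TGM1 library and lower in every BR 8226 library than in the naive libraries of the line, with a log2 change of -10.27 in 8226 and 4.28 in 5TGM1. This difference was not tested, because the mouse rise chose the gene.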

How the results depend on the processing

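Single genes kept their direction and their side of the threshold in 446 of 466 pairs of a gene's change and a setting. Of the rest, 12 were weaker, 5 stronger and 3 reversed. The tally includes EGLN3 in BR against naive 8226. That change is given with no test, so the tally is no support for it. Hif1a in BR 5TGM1 reversed to 0.0040 without naive library 2, within -0.043 to 0.0040 over the libraries left out. HIF1A in CR against BR 8226 reversed to -0.10 with library size alone and to -0.01 without BR library 3, within -0.011 to 0.061 over the libraries left out, and passed the threshold with counts that ignore strand (log2 0.15, adjusted p = 0.0414). ARNT in that comparison passed with library size alone (log2 -0.24, adjusted p = 0.00106) and in a fit of the 2 groups alone (adjusted p = 0.0300). HIF1AN in that comparison missed the threshold with no filter (log2 -0.13, adjusted p = 0.0778), so the members called lower numbered 1, against 2 with the filter. Leaving out a library gave 1 to 3. The line difference of EGLN1 missed it with RLE scaling (log2 0.16, adjusted p = 0.0654). The cause was not tested.

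For libraries of the same replicate number, deviations from group means correlated at -0.183 to -0.0763 in the mouse and -0.225 to 0.335 in the human groups. For libraries of different number the ranges were -0.0751 to 0.205 and -0.293 to 0.237. With so few libraries per group, these values cannot decide whether equal numbers mark paired libraries. With the replicate number as a block, Egln2 in BR 5TGM1 missed the threshold (log2 0.12, adjusted p = 0.0556), and 3912 genes were higher and 3804 lower, against 4077 and 3974. With the block, 5322 genes were higher and 5772 lower in BR 8226, 4881 and 5105 in CR 8226, and 5551 and 5158 in CR against BR cells.

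Depth limits EGLN3 in BR 8226 and mouse Epas1, which rest on 4 counts or fewer per group. Human EGLN2 had 1 count per group, but reads shared by several genes were not counted, so its level cannot be read.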
